A study of Mus musculus with 2 samples.

Results

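The genes followed here, 10 in all, are best known from skin keratinocytes. All 10 were found by symbol among the 32285 genes listed in both matrices: Krtdap, Krt6a, Krt36, Slurp1, Sbsn, Krt5, Krt14, Krt10, Krt1 and Perp. They had been picked because Krtdap and keratins ranked high in the mesenchymal cells of the GA library, so their GA and control levels in those cells are given as a description. GA is gambogic amide, a small molecule agonist of the nerve growth factor receptor TrkA. The cells came from the calvaria of C57BL/6 mice, male and 2 months old, with a 1.8 mm frontal bone defect, collected 7 days after injury. The GA library came from mice injected intraperitoneally with 100 μL of GA at 1.2 mg/kg in 10% DMSO, and the control library from mice injected with the 10% DMSO vehicle. In both groups treatment began 24 h before the injury and, per the labels, lasted 1 week. Each library pooled 5 mice, so there was 1 library per condition, the spread between mice was not measured, and no test between conditions was made. Intervals are exact 95% intervals and cover counting error only.

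These genes were picked on their levels in GA, so the counts here are a description and do not test whether such genes rise in GA. Of the 10 genes, 6 had at least 20 UMIs (unique molecular identifiers, 1 per captured transcript) over both libraries in mesenchymal-lineage cells. Of those 6, 5 were higher in GA and Perp was lower. The median log2 ratio of GA over control was −0.02 for all genes with as many UMIs in the lineage. Krt6a (81 GA and 4 control UMIs) and Krt36 (26 and 4) passed the minimum through their GA UMIs. The other members had fewer than 20 UMIs there. These were Krt14 (2 GA and 6 control UMIs), Krt1 (0 and 8), Slurp1 (15 and 0) and Krt5 (0 and 0). Keratinocyte markers scored highest of all marker lists in 3 clusters (3, 12 and 34), but the leading genes of those clusters included Acod1 and Hcar2, Ccr2 and Ms4a4c, and Jchain and Igha, and none was named keratinocyte-like. The 10 genes and other epithelial genes were left out of the clustering, so the lack of such a cluster cannot show that keratinocytes were absent. The UMIs of the 10 genes lay mostly in cells of the mesenchymal lineage.

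The epidermis renews from a basal layer of keratinocytes that make the keratins Krt5 and Krt14. Cells leaving that layer switch to Krt1 and Krt10 and secrete suprabasin (Sbsn), dermokine (Dmkn) and the keratinocyte differentiation-associated protein (Krtdap). Krt6a marks the hair follicle and wounded epidermis, Krt36 is a hair keratin, Slurp1 is a secreted LY6-type protein of cornifying keratinocytes, and Perp is a p53-induced membrane protein of desmosomes. Fibroblast-like cells that carry Cd34, Dpp4 and Pi16 line the connective tissue of many organs, bone coverings and skin included.

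Krtdap (ENSMUSG00000074199, chr7:30787896-30791097, plus strand) and Sbsn (ENSMUSG00000046056, chr7:30751471-30756134, plus strand) flank Dmkn (ENSMUSG00000060962, chr7:30763756-30781063, plus strand) with no other protein-coding gene between them in the GRCm38 annotation. The keratin genes lie elsewhere, Krt5, Krt6a and Krt1 on chromosome 15 and Krt14, Krt10 and Krt36 on chromosome 11. Krt6a and Krt10 each overlap an antisense gene (Gm49428 and Gm11940), Slurp1 overlaps Them6 on the other strand, and Sbsn overlaps Tmem147os on its own strand. Whether the counting used strand is not given in the sources used here, so those 4 levels may hold reads of the partner gene. Krt6a has the close copy Krt6b beside it, and reads could have been split between them. Since the 3 neighbours on chromosome 7 were found in the same cells, the 150 bases before their start sites are shown, from RefSeq on GRCm38.p6. Capitals mark each match to the AP-1 motif TGANTCA or the TATA box TATAAA, searched on both strands.
Krtdap, chr7:30787755-30787904, plus strand: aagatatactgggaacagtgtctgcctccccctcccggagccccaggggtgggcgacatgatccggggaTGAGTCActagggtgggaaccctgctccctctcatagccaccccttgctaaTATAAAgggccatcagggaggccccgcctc
Sbsn, chr7:30751321-30751470, plus strand: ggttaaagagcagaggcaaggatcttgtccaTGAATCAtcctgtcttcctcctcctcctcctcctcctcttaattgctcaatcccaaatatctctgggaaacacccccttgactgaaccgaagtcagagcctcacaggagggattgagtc
Dmkn, first of 3 entries, chr7:30763606-30763755, plus strand: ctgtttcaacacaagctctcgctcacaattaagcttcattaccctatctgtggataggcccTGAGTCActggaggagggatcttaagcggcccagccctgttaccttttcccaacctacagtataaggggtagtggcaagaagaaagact
The AP-1 letters began 81 bases before the start in Krtdap, 119 in Sbsn and 89 in Dmkn, and 4.27% of 27025 promoter windows of this length hold them. The TATA letters began 30 bases before the Krtdap start and are in 8.08% of windows. RefSeq gave a promoter for 6 of the 10 genes, of which 2 held the AP-1 letters (Krtdap and Sbsn) and 2 the TATA letters (Krtdap and Krt10). These matches are letters in a window and not measured binding.

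After filtering, 8380 GA cells and 7553 control cells were kept, with median depths of 10968.5 and 16299 UMIs. Cells of the mesenchymal lineage made up 10.3% of kept cells in GA (865) and 22.9% in control (1726), and gave 29.3% and 52.5% of the UMIs. Within the lineage the depths were close, at medians of 50355 UMIs in GA and 51035.5 in control. Neutrophil-like cells were 52.6% of kept cells in GA and 27.6% in control. The median mitochondrial share was 1.08% in GA and 2.82% in control, and 18 barcodes were kept in both libraries. The part of these differences in the levels below was not tested.

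Krtdap was restricted almost wholly to the mesenchymal lineage, which held 512 of its 513 GA UMIs and all 100 of its control UMIs. The remaining UMI was in a macrophage or monocyte-like cell. No UMI of Krtdap was found in 4405 GA or 2084 control neutrophil-like cells, which allows shares of up to 0.0837% and 0.177% of cells with a UMI, at median depths of 7062 and 5091.5 UMIs. Krt36 and Slurp1 were read in no kept cell outside the lineage.

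Sbsn was also a gene of the lineage, at 251 CPM (UMIs of a gene scaled to the same total in every class) in GA and 85.4 CPM in control, but osteoclast-like cells held it too. The osteoclast-like level was 48.4 CPM (37.7 to 61.1) in 31 GA cells and 49.2 CPM (41.5 to 57.8) in 62 control cells, with overlapping intervals. In neutrophil-like cells Sbsn stood at 1.24 CPM in GA and 0.704 CPM in control.

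Krt10 was low but widely spread. It stood at 16.8 CPM (15.7 to 18.0) in GA and 12.7 CPM (12.0 to 13.4) in control cells of the mesenchymal lineage. B-like cells held it at a similar level, 14.8 CPM (12.0 to 18.0) in GA and 12.4 CPM (9.76 to 15.5) in control. Neutrophil-like cells had only 3 GA and 6 control UMIs of Krt10.

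Perp had a second home in basophil or mast-like cells, at 57.4 CPM (35.5 to 87.7) in 33 GA cells and 30.2 CPM (15.1 to 54.0) in 34 control cells. In the mesenchymal lineage its levels were 2.36 CPM in GA and 7.59 CPM in control. T or NK-like cells went the other way, with 18 UMIs in GA and 2 in control, a log2 ratio of 3.08 (1.02 to 6.23). Dmkn, the neighbour of Krtdap that was not among the 10 genes, was read in HSC-like cells (named from blood stem and progenitor markers). Its level there was 104 CPM in GA and 71.0 CPM in control, beside 223 and 44.5 CPM in the mesenchymal lineage. Cluster 24 of the HSC-like class was led by Treml1, Ppbp and Gp9, and the Dmkn level is given for the class as a whole.

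**Figure D1:**
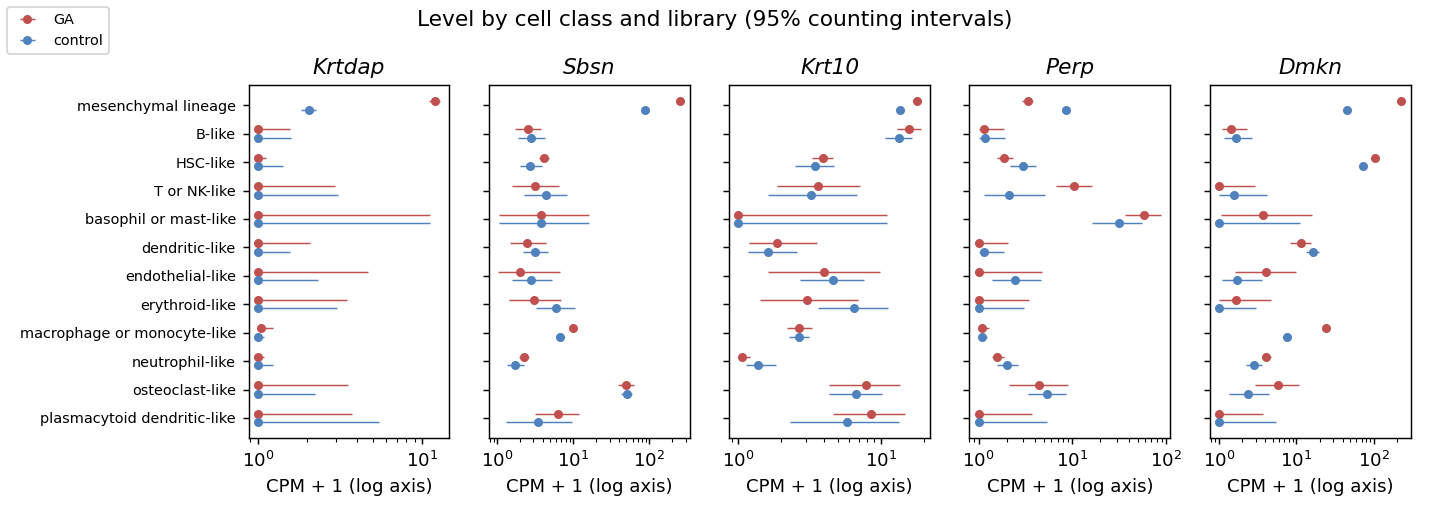
Levels of Krtdap, Sbsn, Krt10, Perp and the neighbour gene Dmkn (CPM + 1, log axis) in named cell classes with at least 20 cells in each library, GA in red and control in blue, with bars for 95% counting intervals. Krtdap leaves the left edge in the mesenchymal lineage alone, apart from 1 UMI in macrophage or monocyte-like cells of GA, while Krt10 is as high in B-like cells as in that lineage and Perp peaks in basophil or mast-like cells.

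In the mesenchymal lineage 4 of the 6 genes with at least 20 UMIs had a log2 ratio of GA over control above 1 (Krtdap, Krt6a, Krt36 and Sbsn). Of all 17670 genes with as many UMIs there, 4.02% had such a ratio, and 4.45% had one below −1, as Perp did. The genes were picked on this contrast, so nothing is read from their count. The median log2 ratio of all genes was −0.02 in the lineage and −0.10 over all kept cells. Over all kept cells 3 of the 6 genes lay above 1 (Krtdap, Krt6a and Krt36), beside 4.25% of all genes, and Perp lay below −1, beside 10.4%.

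In the lineage, 102 of 865 GA cells held the 512 UMIs of Krtdap, and 53 of 1726 control cells held the 100. Its level was 10.9 CPM (9.97 to 11.9) in GA and 1.04 CPM (0.844 to 1.26) in control, a log2 ratio of 3.39 (3.08 to 3.72), and it ranked 22nd of the 17670 genes from the highest ratio. The share of cells with a UMI was 11.8% (9.72 to 14.1) in GA and 3.07% (2.31 to 4.0) in control. With each cell thinned to 10000 UMIs, which left out 8 GA and 6 control cells, the shares were 5.72% (4.26 to 7.49) and 1.10% (0.666 to 1.72).

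The cells that held Krtdap also held more of it in GA. The median over cells with a UMI was 2.5 UMIs in GA and 1 in control, 32 GA cells and 3 control cells held at least 5, and the highest cell held 41 in GA and 9 in control. The 5 highest cells gave 28.3% of the GA UMIs and 31% of the control UMIs. Without them the log2 ratio was 3.45. Under a stricter rule for naming clusters, which left 176 UMIs of Krtdap in the lineage, it was 1.90. Over all kept cells, where the lineage is a smaller part of the GA library, the log2 ratio of Krtdap was 2.55 (2.24 to 2.88).

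Sbsn was the most abundant of the 10 genes by UMIs, with 11794 over 622 cells of the GA lineage and 8233 over 963 of the control lineage. Its log2 ratio was 1.56 (1.51 to 1.60) in the lineage and 0.69 (0.65 to 0.73) over all kept cells. At 10000 UMIs per cell, Sbsn was read in 53.7% (50.3 to 57.1) of GA and 30.9% (28.8 to 33.2) of control cells of the lineage. Cells with at least 50 UMIs were 7.28% of the GA and 1.22% of the control lineage.

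Dmkn stood beside Sbsn in level and, over the lineage as a whole, moved the same way, with a log2 ratio of 2.32 (2.27 to 2.38). It was read in 376 GA and 310 control cells there, 43.5% and 18.0%.

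**Figure D2:**
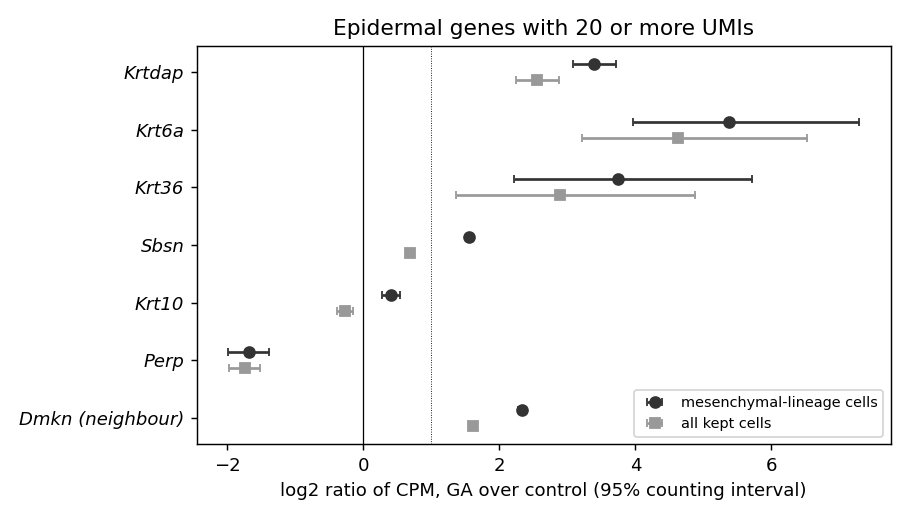
Log2 ratio of CPM in GA over control (x axis) for the 6 genes with at least 20 UMIs and for Dmkn, in mesenchymal-lineage cells (circles) and in all kept cells (squares), with 95% counting intervals and a dotted line at 1. Krtdap, Krt6a and Krt36 lie right of 1 in both sets, Krt10 lies at 0.41 in the lineage and −0.27 over all cells, and Perp lies at −1.68 and −1.75.

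Krt6a, the wound keratin, had the largest ratio of the 6 genes (5.38, 3.97 to 7.29) but this came from a pair of cells. Of its 81 GA UMIs in the lineage, 48 were in 1 cell and 31 in another, and 2 were left in the remaining GA cells against 4 UMIs in all control cells. The cell with 48 UMIs held no Krtdap, Sbsn or Krt14 UMI, and the cell with 31 held 4 of Krtdap and 22 of Sbsn. Neither held a UMI of Krt5 or Krt14. The interval takes UMIs as independent and is too narrow for a gene read in so few cells.

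Krt36 was spread more evenly, with 26 UMIs over 20 cells in GA (at most 3 in a cell) and 4 over 4 cells in control, a log2 ratio of 3.74 (2.21 to 5.72). With cells thinned to 10000 UMIs, 7 UMIs of Krt36 were left and the ratio was 2.33 (−0.28 to 5.72), and under the stricter naming rule 5 were left and it was 3.09 (−0.25 to 8.71), so that both intervals held 0. Slurp1 had 15 UMIs in 8 GA cells of the lineage and none in 1726 control cells, which allows a share of up to 0.213% of cells with a captured UMI and sets no limit on cells expressing the gene. The exact interval of its log2 ratio had no upper limit and a lower limit of 2.88. A single GA cell held 7 of the 15 UMIs of Slurp1, which left 8 in the other GA cells, and that cell also had the highest Sbsn count of the GA library (232 UMIs) and 258 UMIs of Dmkn.

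**Figure D3:**
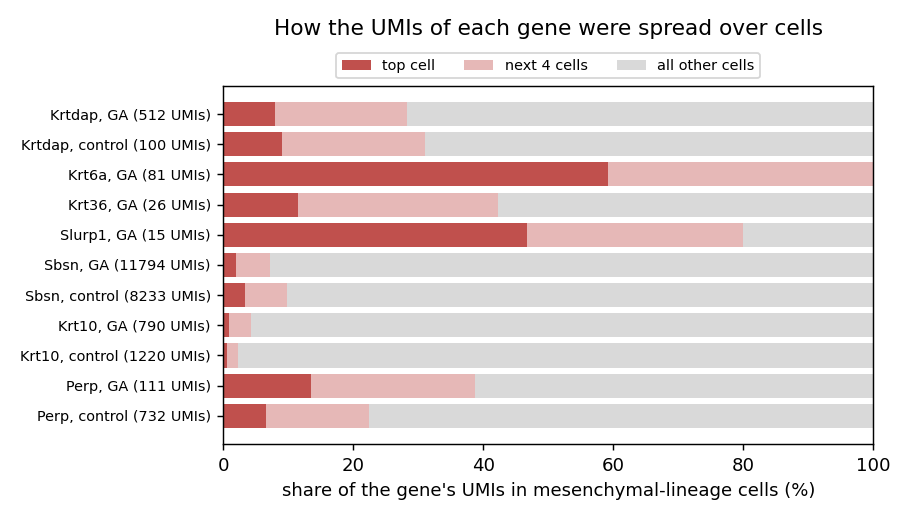
Share of each gene's UMIs in mesenchymal-lineage cells (x axis, %) that lay in the top cell, the next 4 cells and all other cells, for each gene and library with at least 15 UMIs. Krt6a in GA lay wholly in its top 5 cells and Slurp1 to 80% in its top 5, while the top 5 cells held 7.1% of the Sbsn UMIs in GA.

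The other keratins did not follow Krtdap. The ratio of Krt10 depended on the cells compared, at 0.41 (0.28 to 0.54) in the lineage and −0.27 (−0.39 to −0.16) over all kept cells. Of 14 sub-clusters of the lineage with at least 20 UMIs of Krt10, 12 had a higher level in GA. The interval lay above 0 in 3 of them and below 0 in none, and no ratio was above 1. The sub-clusters share the same 2 libraries and are no separate observations. The counts of Krt10 per cell were low in both libraries, with a median of 1 UMI in cells that held any and at most 7. Krt1, its epidermal partner, had no UMI in the GA lineage and 8 UMIs in 6 control cells.

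The basal keratins were close to absent from kept cells. Krt14 had 2 UMIs in GA and 6 in control, and Krt5 had 1 in each. In the matrices as deposited, before any filter, Krt14 had 148 UMIs in GA and 14 in control, but 146 of the GA UMIs were in 1 barcode. The same barcode held 12 of the 13 GA UMIs of Krt5, along with 89 of Krt17, 72 of Sfn, 43 of Krt16, 27 of Lgals7, 17 of Epcam and 5 of Perp.

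That barcode had 16513 UMIs and UMIs of 12 of 22 epithelial panel genes, and had none of Cd34, Pdgfra, Ptprc, Krtdap, Sbsn or Krt10. It was the only barcode of either library with at least 8 panel genes, and it was among those removed as predicted doublets, so it is in none of the levels above. Over all barcodes, 2 in GA and 1 in control had at least 5 panel genes. The other GA barcode, also a predicted doublet, had 55731 UMIs. It held 7 UMIs of Krtdap, 75 of Sbsn, 130 of Dmkn and 49 of Krt19, along with 15 of Cd34 and 312 of Col1a1. The control barcode, outside the limits, held 1 of Krtdap and 10 of Sbsn. With predicted doublets kept, the lineage log2 ratio of Krtdap was 3.41. Among kept cells, those with at least 3 panel genes were 16 of 8380 in GA (0.191%, 0.109 to 0.310) and 21 of 7553 in control (0.278%, 0.172 to 0.425). Of these, 12 GA and 19 control cells were in the mesenchymal lineage, and no kept cell had 5 or more panel genes.

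Perp was lower in GA in the mesenchymal lineage, with 111 UMIs over 36 cells of the GA lineage and 732 over 192 cells of the control lineage, a log2 ratio of −1.68 (−1.99 to −1.39). Fibroblastic progenitor-like cells (M6, M8 and M14), where the elastin gene Eln stood at 934 to 2751 CPM and the transporter gene Slc47a1 at 178 CPM in M8 but 0 in M14, held 96 of the 111 GA UMIs and 708 of the 732 control UMIs. Those cells were 5.43% of the GA lineage (47 cells) and 20.9% of the control lineage (360 cells). Within their sub-cluster M8, Perp was at 93.4 CPM in 24 GA cells and 79.6 CPM in 134 control cells, a log2 ratio of 0.23 (−0.18 to 0.62). Within M6 the ratio was 0.20 (−0.39 to 0.74). With sub-clusters weighted alike in both libraries, the lineage ratio of Perp was 0.23 in place of −1.68. The weighting used 13 of the 15 sub-clusters, whereas −1.68 covers all 15.

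Krtdap, Sbsn, Dmkn, Krt36 and Slurp1 instead shared the Cd34 stem-like sub-clusters, M0, M4 and M5, whose cells were 36.6% of the GA lineage (317 cells) and 25.5% of the control lineage (440 cells). These sub-clusters held 95.1% of the GA and 81% of the control UMIs of Krtdap, all 26 GA and 4 control UMIs of Krt36, 14 of the 15 UMIs of Slurp1, and 78.2% of the GA and 70.6% of the control UMIs of Sbsn. Slurp1 had no UMI in M4. In control, fibroblastic progenitor-like cells held 13% of the Krtdap UMIs, and Krtdap stood at 1.22 CPM in M6 beside 1.34 CPM in M4. The 10 genes and other epithelial genes had been left out of the clustering. Cd34 stood at 472 CPM in M0, 763 CPM in M4 and 895 CPM in M5, and Pi16 at 9.31 CPM, 687 CPM and 888 CPM. Cd34 was also read at 348 CPM in M13, 308 CPM in M1, 225 CPM in M9 and 212 CPM in M3.

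In GA, Krtdap was highest in the sub-clusters with most Pi16, whereas in control M0, with little Pi16, stood level with M5. In M5 it was at 51.2 CPM in GA and 4.12 CPM in control, a log2 ratio of 3.63 (3.03 to 4.30). In M4 the levels were 35.1 and 1.34 CPM, a log2 ratio of 4.71 (3.85 to 5.70). In M0 they were 10.3 and 3.96 CPM, a log2 ratio of 1.37 (0.85 to 1.92). These were the only 3 of 15 sub-clusters with at least 20 UMIs of Krtdap, and the GA level was the higher in each. They came from the same 2 libraries and are no separate observations.

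Sbsn was led by M0, at 554 CPM in GA and 303 CPM in control, and by M5, at 530 and 180 CPM. Of 14 sub-clusters with at least 20 UMIs of Sbsn, 13 had a higher level in GA, and the interval lay above 0 in 9 and below 0 in none. All sub-clusters came from the same 2 libraries, so this count is a description and not a set of separate observations. The exception was M8, at 7.41 CPM in GA and 17.7 CPM in control with an interval that held 0. Of 10 sub-clusters with at least 20 UMIs of Dmkn, 8 had a higher level in GA. The interval of Dmkn lay below 0 in 1 of them, M8, with 0 GA and 46 control UMIs. In M6 Dmkn had 2 GA and 61 control UMIs, with an interval that held 0. Weighting 13 of the 15 sub-clusters alike gave a log2 ratio of 3.12 for Krtdap, 1.11 for Sbsn and 0.46 for Krt10. Sub-cluster M13, with 22 GA and 4 control cells, was led by the neutrophil genes S100a8 and S100a9, and without it the Krtdap ratio was 3.41.

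**Figure D4:**
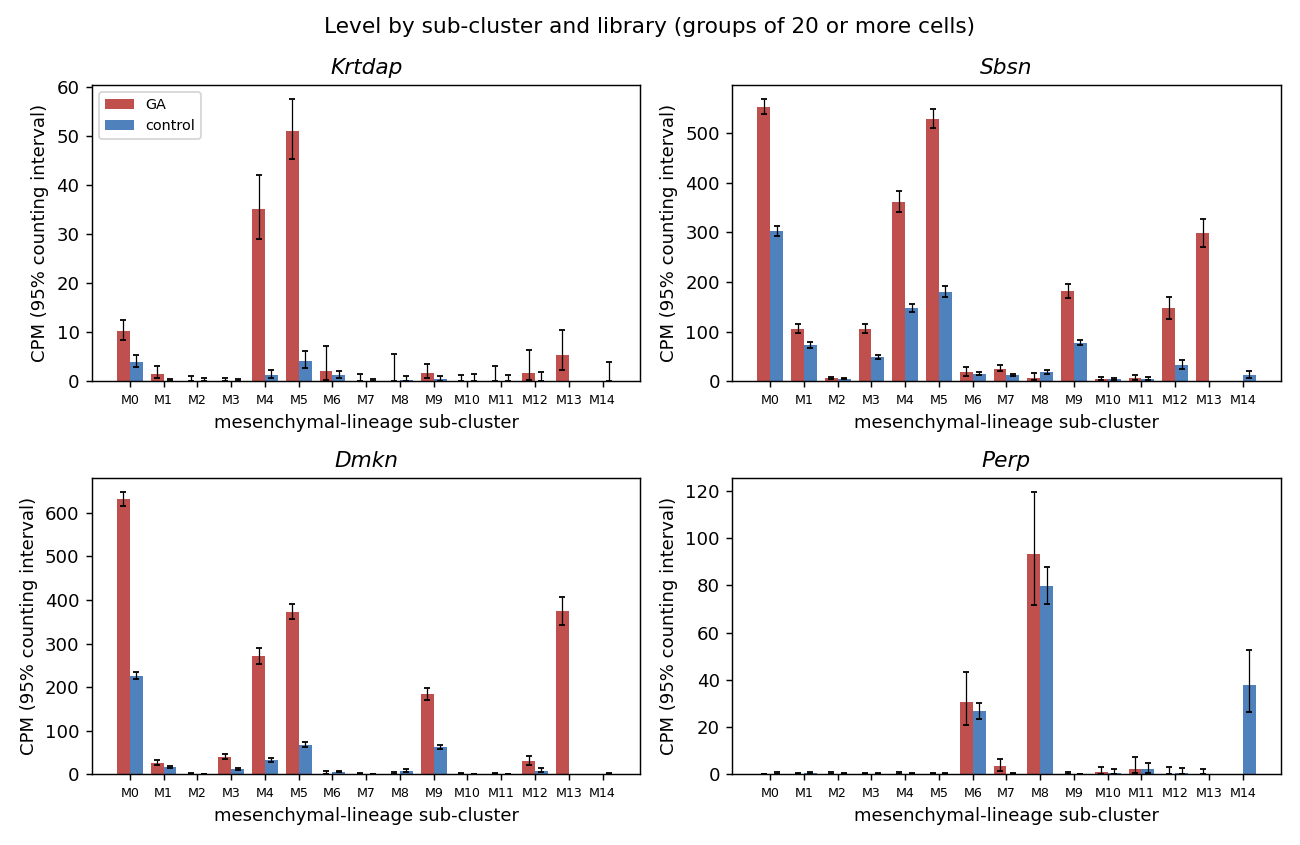
Level (CPM, y axes from 0) of Krtdap, Sbsn, Dmkn and Perp in each mesenchymal-lineage sub-cluster with at least 20 cells in the library, GA in red and control in blue, with 95% counting intervals. Krtdap is highest in M4 and M5 of the GA library. Sbsn and Dmkn are high there and in M0, and also in M13 of GA (298 CPM and 374 CPM), the sub-cluster led by neutrophil genes. Perp is confined to M6, M8 and M14 apart from levels under 10 CPM, with GA and control close together in M6 and M8.

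Within single cells the neighbours on chromosome 7 were read together. All 102 GA cells of the lineage with Krtdap also held Sbsn, against 68.2% of the 763 without, and 96.1% held Dmkn, against 36.4%. In control 49 of the 53 cells with Krtdap held Sbsn (92.5%, against 54.6% of cells without) and 60.4% held Dmkn (against 16.6%). Median depth was 48889 UMIs in GA cells with Krtdap and 50605 without, and 69742 and 50849 in control. Most cells with Sbsn held no Krtdap. Read from that side, the same counts give the shares below and are no second observation. The median depths of cells with and without Sbsn were 55252 and 41507 UMIs in GA, and 58145 and 44030 in control. Krtdap was read in 16.4% of the 622 GA cells with Sbsn and in 0 of the 243 without, and in control in 5.09% of the cells with Sbsn and 0.524% of those without. It was read in 26.1% of the GA cells with Dmkn and 0.818% of those without, at median depths of 56089 and 47065 UMIs. The part of depth and of shared sub-clusters in this pairing was not tested. Of 20 GA cells with Krt36, 9 held Krtdap, and of 36 GA cells with Perp, 1 did.

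Other skin genes were read from lists by layer and role, beside the 4.02% of all genes above 1 and the 4.45% below −1 in the lineage. Of the basal epidermis genes, 7 of 12 had at least 20 UMIs in the lineage, none with a log2 ratio above 1 and 1 below −1 (Lama3, a laminin chain, −1.19), with a median of −0.11. Of the suprabasal genes, 7 of 12 did, with 4 above 1 and a median of 1.04. Those 4 were Krtdap and Sbsn, which were picked for high levels in these cells, their neighbour Dmkn, and Ly6d, so the count and the median are no independent evidence of a direction. Ly6d was at 19 UMIs in each library, with a ratio of 1.04 (0.04 to 2.03). Dsg1a and Dsc1, the desmosomal cadherins of the upper epidermis, had no UMI in any kept cell.

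Of 14 cornified envelope genes, 3 had at least 20 UMIs in the lineage, none above 1 and 1 below −1, and Ivl, Flg2, Cnfn, Lce1a1 and Klk7 had no UMI in kept cells. The one below −1 was Sprr1a, with 5 GA and 66 control UMIs (−2.69, −4.35 to −1.39) from 4 and 13 cells. Of the stress and wound keratins, 2 of 4 passed, Krt6a and Krt16, and Krt16 had 12 GA and 27 control UMIs (−0.13, −1.25 to 0.90). Of 8 desmosome genes, all passed and 4 lay below −1 (Perp, Dsg2, Pkp1 and Dsp), with a median of −1.03. The fibroblastic progenitor-like cells that held most of the Perp UMIs were a smaller share of the GA than of the control lineage, as given above. The Perp ratio was 0.23 with 13 of the 15 sub-clusters weighted alike. Dsg2, Pkp1 and Dsp were not weighted in this way. The part of cell composition in the ratios of the desmosome genes was not tested. Of 8 simple epithelium genes, 4 passed, none above 1 and 1 below −1 (Cdh1, 3 GA and 32 control UMIs).

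Of 17 genes of the hair shaft and inner root sheath, 16 were in the matrices and 4 passed in the lineage, with Krt36 and Krt83 above 1. Krt83 was foremost a neutrophil gene here, with 7496 of its 7777 GA UMIs in neutrophil-like cells and 72 in the lineage, and neutrophil-like cells were the larger share of the GA library. The neutrophil gene S100a8 was read in 73.1% to 100% of the cells of every sub-cluster of the lineage, and the part of neutrophil RNA in the Krt83 ratio was not tested. Of 11 keratinocyte transcription factors, 6 passed, none above 1 and 1 below −1 (Klf5, 15.3 CPM in GA and 31.4 CPM in control). Trp63, the master regulator of the epidermis, had 39 GA and 59 control UMIs in 19 and 32 cells (0.44, −0.18 to 1.05). Of 8 genes of the SLURP and LY6 family, 2 passed, Ly6d above 1 and Lynx1 at 0.26.

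The epithelial panel summed to 15.5 CPM in GA and 16.4 CPM in control cells of the lineage, with 10 of 22 genes passing, 1 above 1 (Trim29) and 2 below −1 (Pkp1 and Esrp1). The panel summed to 68.9 CPM in GA and 88.3 CPM in control neutrophil-like cells, so its sum is no gauge of epithelial cells alone. Its genes Krt17, Dsg1a and Dsc1 were at 0 in all kept cells. Markers of other cells of skin and scalp were also counted in the lineage. The melanocyte list summed to 1.47 and 2.47 CPM with Tyrp1 at 0, the skeletal muscle list to 4.06 and 4.04 CPM, and the Schwann cell list to 91.6 and 82.0 CPM, of which Pmp22 gave most. Of these 3 lists none of the passing genes lay above 1, and 1 (Mlana) lay below −1. The part of any such cell in the levels of the 10 genes was not tested.

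The genes with profiles most like each member were ranked over 83 cell groups (clusters or sub-clusters by library, each of at least 20 cells) among 15319 genes with at least 200 UMIs. The groups share libraries and differ in depth, so the coefficients are descriptions. Since groups are split by library, the difference between GA and control enters the coefficients. The GA and control levels of the nearest genes are therefore no separate evidence of a direction. The genes nearest to Krtdap were Gm49212 (Pearson r 0.90), Gm46323 (0.85), Cd55b (0.84), Efhd1 (0.79) and 9630002D21Rik (0.78). In the lineage Cd55b, a complement decay-accelerating factor, stood at 6.96 CPM in GA and 1.66 CPM in control, and Efhd1 at 33.9 and 9.34 CPM. The genes nearest to Sbsn were Lgi3 (0.88), Dpt (0.88), Duoxa1 (0.88), AI427809 (0.87) and Ssc5d (0.87), and Dpt (dermatopontin, a matrix protein of fibroblasts) stood at 578 CPM in GA and 449 CPM in control.

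The genes nearest to Perp were Gjb6 (0.68), Gjb2 (0.68), Gm29683 (0.67), Crym (0.67) and Ntrk3 (0.67). Gjb2 and Gjb6 encode gap junction connexins, and in the lineage Gjb2 stood at 3.94 CPM in GA and 11.1 CPM in control. The genes nearest to Krt10 were Twsg1 (0.87), 2700081O15Rik (0.87), Hmgn3 (0.86), Hmgn1 (0.85) and Tmem263 (0.84). Between the genes themselves, r was 0.72 for Krtdap and Sbsn, 0.64 for Krtdap and Dmkn, and −0.11 for Krtdap and Perp.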

How the data were processed

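Cells of the calvarial defect were profiled as 1 single-cell RNA library per condition. The authors deposited raw UMI counts per gene and barcode, made with Cell Ranger 7.0.1 per the file headers against mm10. The study's methods name a later release, 2 kit versions and a dose of 2 mg/kg where the labels give 1.2. Barcodes of 500 to 140000 UMIs, 200 to 9500 genes and at most 15% mitochondrial UMIs were kept. Scrublet called at most 0.447% of barcodes by itself, so the highest scores, at 0.8% per 1000 barcodes, were removed as predicted doublets (656 GA and 540 control). Cells were clustered with scanpy 1.11.5 (2000 variable genes without the epithelial genes, 50 components, a NumPy version of Harmony, 15 neighbours, Leiden resolution 1) and named from marker lists, so names may differ from the study's. UMIs were summed over cells of a class and divided by the class total. Ratios carry exact conditional binomial intervals, CPM Poisson and shares Clopper-Pearson intervals, computed with SciPy 1.17.1, which cover counting error only. The calculation was tested on simulated counts. The genes, lists and thresholds were chosen with earlier results of these data known. Named are the 10 members, the genes of the lists and, per member of at least 100 UMIs, the 5 with the closest profile. Alternatives covered filters, clustering, naming, top cells, minimum counts and depth.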

Additional observations from a re-analysis of the deposited data

How the results depend on the processing

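No paired analysis was possible because each condition had 1 library, and no replicate could be left out. The log2 ratio of Krtdap in the mesenchymal lineage was 3.39. It became 6.17 with cells thinned to 2000 UMIs, where 37 UMIs were left, in 23 GA cells and only 1 control cell. It became 1.90 with a stricter naming rule, added after the data were seen, that left 176 of 612 UMIs in the lineage. Over all cells it was 2.55 and became 5.01 with the thinning to 2000 UMIs, again with only 1 control cell that held a UMI. The number of genes with a lineage ratio above 1 was 4 and became 2 without the 5 top cells of each gene and with thinning to 2000 or 10000 UMIs, since fewer genes had 20 UMIs left. It became 5 with a minimum of 10 UMIs or none. The Krt36 ratio of 3.74 was 2.33 with thinning to 10000 UMIs and 3.09 with stricter naming, with intervals that held 0. Cells with at least 3 panel genes numbered 16 in GA and 21 in control. They numbered 236 and 247 with at least 2 genes, 0 and 0 with at least 5, and 25 and 32 over all barcodes. The Perp ratio in the lineage, −1.68, reversed to 0.23 with 13 of the 15 sub-clusters weighted alike, a choice added after the data were seen. No other ratio changed sign in the alternatives run. Genes with under 20 UMIs were not carried through, and the 5 top cells of Krt6a could not be left out, since no UMI remained.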

Other observations

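Hair keratins were read outside the mesenchymal lineage. Krt83 and Krt81 were leading genes of neutrophil-like clusters, with 7496 of 7777 GA UMIs and 3479 of 3667 control UMIs of Krt83 in neutrophil-like cells. Over all kept cells Krt83 had a log2 ratio of GA over control of 1.28 (1.22 to 1.34) and Krt81 of 1.18 (1.09 to 1.27). Within neutrophil-like cells the ratios were −0.34 (−0.40 to −0.28), from 176 CPM in GA and 223 CPM in control, and −0.44 (−0.54 to −0.35), from 64.7 and 87.9 CPM. Neutrophil-like cells were 52.6% of kept cells in GA and 27.6% in control.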
